A study of Homo sapiens with 45 samples.

Results

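Messenger RNA of differentiating motor neuron cultures was compared between day 5 and day 4 across all genes, with 3 libraries from each day out of 45 libraries in the human time course. The members were the libraries labelled day 5 and day 4, and no measured value entered the choice. All were made from polyadenylated RNA, and the cells came from H9, a widely used line of human embryonic stem cells. The day 5 cultures and the day 4 cultures carried the same history: they were first brought to a neuromesodermal progenitor state with the GSK3 inhibitor CHIR99021, bFGF, the TGF-beta receptor inhibitor SB431542 and the BMP receptor inhibitor DMH1. On day 0 they were replated on fibronectin in retinoic acid (RA, 100 nM) and SAG (500 nM), an agonist of the Hedgehog transducer Smoothened. A ROCK inhibitor given after each plating had been withdrawn before day 4, and medium was exchanged every other day. The labels do not say on which days that was, so 1 more day in culture and a different time since fresh medium cannot be told apart. No allele was engineered, no library was labelled day 3, and day 6 and day 2 libraries were used here only to set the pace of change. Nothing in the labels beyond the word biorep says that replicates came from separate cultures, so p-values measure the spread between these samples, which may be technical.

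Spinal motor neurons arise from ventral progenitors that the Hedgehog signal patterns and retinoic acid drives toward differentiation. These progenitors carry OLIG2, NKX6-1 and PAX6, and proneural factors such as NEUROG2 push them out of the cell cycle. Newborn motor neurons then switch on the homeodomain factors MNX1, ISL1 and LHX3, which together turn on the cholinergic and cytoskeletal genes of the mature cell.

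Levels are given in CPM, which are expected read counts over the library size after TMM scaling, expressed per 1000000. A log2 change is the fitted value of day 5 minus day 4, ± SE, and genes with an adjusted p under 0.05 are described as called. The total counts were 30369853, 34669459 and 25883066 on day 5, and 33164993, 22835854 and 32773882 on day 4, and between 23458 and 24189 genes had counts. On the first principal component of the 1000 most variable genes, with day 0 at 0% and day 15 at 100%, day 5 lay at 51.4% ± 0.31 and day 4 at 40.2% ± 0.83 (SD, n = 3 each). Day 4 replicates differed more from each other than day 5 replicates did: the chi-square per degree of freedom between libraries was 3.95 to 6.65 on day 5, against 8.66 to 21.7 on day 4, and the highest value involved day 4 replicate 2. Every pair of replicates therefore differed by more than sampling noise. The sources used here do not say whether counting used strand, so reads of overlapping genes cannot be told apart. Among the genes described below, an overlap with another coding gene touches ACSS2, BLACAT1, BUB1B, CACNA1D, CALCB, CDON, CELF3, CHAT, CSMD2, DLL1, DNAJB1, ELAVL3, ETV4, ETV5, FOXA1, FOXA2, GLI1, HHIP, IGF2, JUNB, L1CAM, LHX4, MAPT, MATN2, MCM2, MDM2, MT-CO3, MYT1, NID2, PAX6, PDE8B, PHOX2A, POU5F1, PXYLP1, RAB3A, SLC18A2, SLC18A3, TMOD1, TUBB3, UBD, WNT2B and several HOX genes. Tubulins have near-identical copies, between which RSEM divides reads by estimate.

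The cultures are labelled neural progenitor cells, and they held markers of progenitors and of neurons. The summed level of 6 neural progenitor markers (SOX1, SOX2, SOX3, PAX6, NES and VIM) lay between 6165 and 6426 CPM on day 5 and between 6105 and 6767 CPM on day 4. That of 5 neuron markers (TUBB3, STMN2, ELAVL3, ELAVL4 and DCX) was 1804 to 1959 CPM on day 5 and 1461 to 1552 CPM on day 4, and the groups did not overlap. That of 4 motor neuron markers (MNX1, ISL1, ISL2 and LHX3) was 11.2 to 15.0 CPM on day 5 and 4.48 to 5.67 CPM on day 4. The motor neuron sums did not overlap between the days either. Markers of other lineages stayed low: the 5 mesoderm markers summed to 4.56 to 5.50 CPM on day 5 and 3.52 to 3.81 CPM on day 4, and the 5 neural crest markers to 0.473 to 0.671 CPM on day 5 and 0.667 to 0.950 CPM on day 4. The 3 floor plate markers summed to 2.72 to 3.36 CPM on day 5 and 1.84 to 2.63 CPM on day 4. The 5 endoderm and endothelium markers summed to 1.61 to 2.48 CPM on day 5 and 1.67 to 2.11 CPM on day 4. Among them, the endoderm marker SOX17 had 0 counts on both days. The endothelial marker CDH5 had 139 counts on day 5 and 134 on day 4. The pluripotency markers POU5F1 and NANOG together reached at most 0.0671 CPM on day 5 and 0.0904 CPM on day 4. In these bulk samples, fewer cells of a type and less RNA per cell cannot be told apart.

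Over all 19436 genes tested, 1307 differed between day 5 and day 4, which is 6.72%: 767 were higher on day 5 (3.95%) and 540 were lower (2.78%). The rises were larger than the falls. The median log2 change was 0.56 among the genes called higher and -0.24 among those called lower, against 0 over all genes tested. A change of at least 2-fold was seen for 163 higher genes (0.839%) and 31 lower genes (0.159%). The 3 libraries of day 5 lay wholly above those of day 4 for 2546 genes (13.1%) and wholly below for 2239 genes (11.5%), so non-overlap alone was common. Of 15271 protein-coding genes tested, 716 were higher and 507 lower. Counts of calls in the gene lists below are to be read against 3.95% higher and 2.78% lower over all genes. No list was tested as a set.

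The split between directions depended on the scale. With limma on log2(TPM + 1), 968 genes were higher and 189 lower, so 83.7% of calls were higher, against 58.7% in edgeR. With a pseudocount of 0.1 it was 87.2%. DESeq2 called 895 genes higher and 780 lower, a share of 53.4%, and its size factors in edgeR gave 54.7%. The share was 65.2% in the fit of the 6 libraries alone, 71.2% without the filter on low counts and 66.4% at an adjusted p under 0.01. Leaving out 1 library gave 60.6% to 65.7% for day 5 libraries and 54.5% to 66.1% for day 4 libraries. The counts without 1 library were 575 higher and 300 lower without day 5 replicate 1, 501 and 326 without day 5 replicate 2, and 502 and 287 without day 5 replicate 3. They were 664 and 343 without day 4 replicate 1, 605 and 505 without day 4 replicate 2, and 447 and 229 without day 4 replicate 3. The counts of at least 2-fold changes were 110 higher and 16 lower without day 4 replicate 3, and lay between 133 and 182 and between 22 and 33 without another single library. No gene of the 1307 that was called again under any of these alternatives had changed sign. The alternatives share libraries with the main fit, so a change of sign among genes called in both could hardly have occurred. Without replicate 1 of every day, 310 of the 1307 (23.7%) were called again. Of the 184 calls of named genes, 121 were lost with replicate 1 of every day left out, 69 without replicate 2, 79 without replicate 3, 40 with limma on log2(TPM + 1) and 41 without the filter on low counts. Where a call described below was also lost without 1 of the 6 libraries or in the fit of these days alone, those losses are the ones given.

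**Figure D1:**
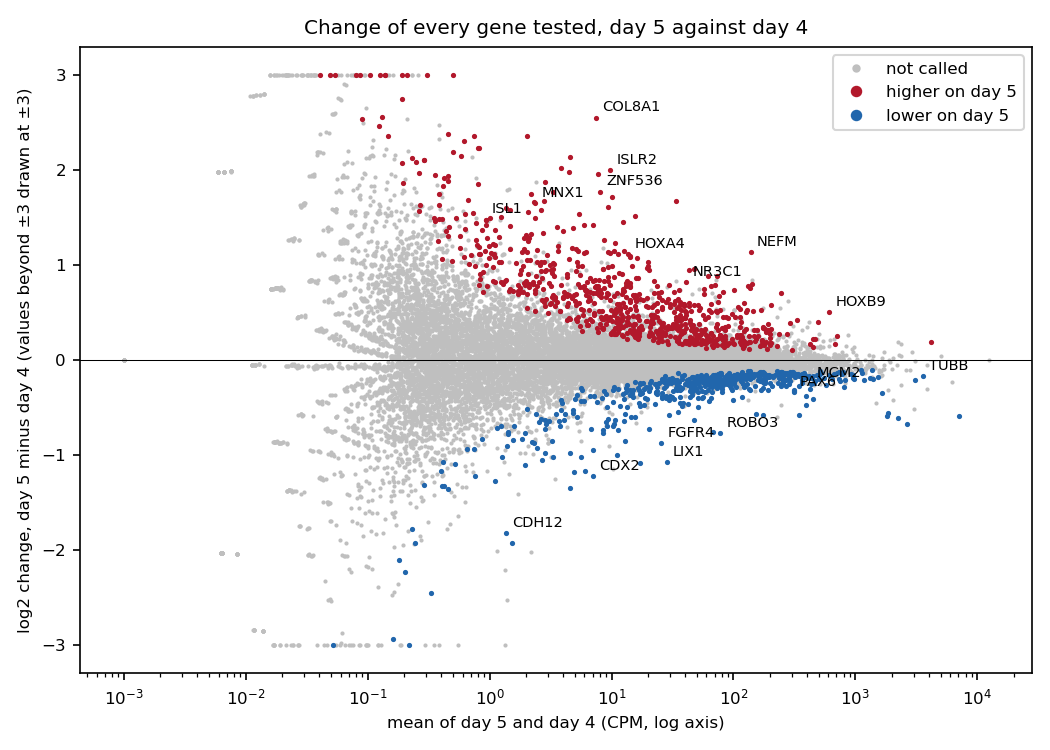
Fitted log2 change of each gene tested (y axis, day 5 minus day 4) against its mean level over both days in CPM (x axis, log scale), with red for the 767 genes called higher on day 5, blue for the 540 called lower and grey for the rest. Called rises reach farther from 0 than called falls, and falls among abundant genes are small.

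Several motor neuron identity genes rose. Of 10 motor neuron factors tested, 5 were called higher and 0 lower, with a median log2 change of 0.45 over the 10 against 0 over all genes. MNX1, the homeodomain factor that consolidates motor neuron identity, had 3.22, 2.45 and 5.17 CPM on day 5, against 1.24, 1.27 and 0.897 CPM on day 4 (log2 change 1.66 ± 0.37, adjusted p = 0.0043). LHX3, the LIM factor that forms a complex with ISL1, had 6.54, 7.42 and 8.25 CPM on day 5, against 2.86, 3.03 and 4.04 CPM on day 4 (log2 change 1.15 ± 0.23, adjusted p = 0.0012). ISL1, the LIM factor common to spinal motor neurons, had 1.24, 1.39 and 1.46 CPM on day 5, against 0.254, 0.633 and 0.609 CPM on day 4 (log2 change 1.48 ± 0.37, adjusted p = 0.0097). In each of these genes every day 5 library was above every day 4 library, although the levels stayed within a few CPM. LHX4, a close relative of LHX3, had 28.4, 29.1 and 33.3 CPM on day 5, against 18.1, 20.6 and 18.5 CPM on day 4 (log2 change 0.67 ± 0.19, adjusted p = 0.03). ONECUT3, of the ONECUT family found in early motor neurons, had 12.4, 12.6 and 13.7 CPM on day 5, against 5.97, 6.01 and 5.61 CPM on day 4 (log2 change 1.14 ± 0.21, adjusted p = 0.00072). Its relatives ONECUT1 and ONECUT2 overlapped between the days, with log2 changes of 0.19 ± 0.16 and 0.24 ± 0.19. ISL2, which marks later motor neurons, had only 11 counts on day 5 and 10 on day 4 in all. MNX1 was not called without replicates 1 or 3 of every day (adjusted p = 0.087 to 0.14). LHX3 and ONECUT3 were not called without replicate 1 of every day (adjusted p = 0.092 to 0.11). ISL1 was not called without day 4 replicate 1 (adjusted p = 0.092). LHX4 was not called without day 5 replicates 1, 2 or 3 or without day 4 replicates 1 or 3 (adjusted p = 0.051 to 0.13).

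Cholinergic genes moved in part. Of 6 tested, 2 were called higher and 0 lower, with a median log2 change of 0.80. SLC18A3, the vesicular acetylcholine transporter, had 5.07, 4.31 and 3.67 CPM on day 5, against 2.41, 2.08 and 2.21 CPM on day 4 (log2 change 0.96 ± 0.22, adjusted p = 0.0055). ACHE, which degrades acetylcholine, had 2.92, 3.31 and 3.04 CPM on day 5, against 1.71, 1.90 and 1.44 CPM on day 4 (log2 change 0.89 ± 0.18, adjusted p = 0.0015). The groups did not overlap for either gene. SLC5A7, the choline transporter, had 0.939, 0.296 and 1.03 CPM on day 5, against 0.254, 0.226 and 0.224 CPM on day 4, also without overlap, but missed the threshold (log2 change 1.60 ± 0.51, adjusted p = 0.054). CHAT, which makes acetylcholine, was near the limit of detection, with 0.201, 0.148 and 0.316 CPM on day 5, against 0.0953, 0.181 and 0.128 CPM on day 4 (adjusted p = 0.52). PRIMA1, which anchors acetylcholinesterase, and SLC10A4, a vesicular protein, had log2 changes of -0.34 ± 0.16 and -0.22 ± 0.37 and were not called. SLC18A3 lies within CHAT in the annotation, so reads of this locus can be shared between them. SLC18A3 was not called without replicates 1 or 2 of every day (adjusted p = 0.1).

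The 250 bases before the RefSeq start (GRCh38.p14) are shown for ISL1, LHX3, MNX1 and SLC18A3 because these genes carry the motor neuron result. Capitals mark a match to CAGCTG, to CAGATG (or CATCTG on the other strand), which are E-boxes bound by proneural bHLH factors, or to GTGGGAA (or TTCCCAC), the RBPJ motif of the Notch pathway. No marked matches overlapped. The windows lie at chr5:51383198-51383447 on the plus strand for ISL1, chr10:49610060-49610309 on the plus strand for SLC18A3, chr9:136205129-136205378 on the minus strand for LHX3 and chr7:157010664-157010913 on the minus strand for MNX1.
ISL1: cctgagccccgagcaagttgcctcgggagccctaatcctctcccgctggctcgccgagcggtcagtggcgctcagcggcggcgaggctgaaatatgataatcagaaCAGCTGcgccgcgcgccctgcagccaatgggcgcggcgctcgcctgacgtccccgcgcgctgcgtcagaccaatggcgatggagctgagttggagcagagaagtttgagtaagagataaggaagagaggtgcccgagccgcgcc
SLC18A3: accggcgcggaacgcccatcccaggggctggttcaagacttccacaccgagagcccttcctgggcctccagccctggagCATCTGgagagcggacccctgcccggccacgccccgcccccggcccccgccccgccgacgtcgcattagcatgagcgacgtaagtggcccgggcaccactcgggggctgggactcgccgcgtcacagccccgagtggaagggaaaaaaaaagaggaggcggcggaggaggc
LHX3: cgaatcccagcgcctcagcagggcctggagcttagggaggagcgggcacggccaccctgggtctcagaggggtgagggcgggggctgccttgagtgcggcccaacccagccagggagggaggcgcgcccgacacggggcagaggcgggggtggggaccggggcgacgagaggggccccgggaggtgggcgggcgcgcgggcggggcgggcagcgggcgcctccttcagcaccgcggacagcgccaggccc
MNX1: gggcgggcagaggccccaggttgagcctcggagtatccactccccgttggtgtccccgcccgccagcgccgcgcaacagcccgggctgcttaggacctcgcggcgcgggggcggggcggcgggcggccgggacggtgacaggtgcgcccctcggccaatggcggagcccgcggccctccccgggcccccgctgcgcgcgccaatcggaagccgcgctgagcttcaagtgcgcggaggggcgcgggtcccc
The ISL1 window held CAGCTG, which began 144 bases before the start, and the SLC18A3 window held CATCTG, which began 171 bases before it. The LHX3 and MNX1 windows held none of the 3 motifs. Of the 5 motor neuron factors called higher, 4 had a window in the RefSeq table and 1 of these held a motif. Over protein-coding genes with a window, CAGATG or CATCTG occurred in 10.8% of 536 called higher, 7.40% of 392 called lower and 8.17% of 11782 tested. CAGCTG occurred in 13.8%, 12.8% and 13.0% of the same sets, and GTGGGAA or TTCCCAC in 6.90%, 4.85% and 5.11%. Over all 27305 windows of the table the shares were 12.2%, 13.8% and 5.46%. These are matches of letters and were not tested.

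General neuronal genes also rose. Of 22 pan-neuronal genes tested, 9 were called higher and 0 lower, with a median log2 change of 0.40. NEFM, the medium neurofilament subunit, had 186, 187 and 199 CPM on day 5, against 87.5, 84.3 and 87.7 CPM on day 4 (log2 change 1.14 ± 0.19, adjusted p = 0.00016). NEFL, the light subunit, had 174, 179 and 184 CPM on day 5, against 105, 104 and 98.1 CPM on day 4 (log2 change 0.80 ± 0.12, adjusted p = 1.7e-05). L1CAM, an axonal adhesion protein, had 78.8, 80.9 and 89.9 CPM on day 5, against 48.9, 45.5 and 50.3 CPM on day 4 (log2 change 0.78 ± 0.15, adjusted p = 0.0012). Replicates lay close together in these genes and the days were far apart. STMN4, which regulates microtubules, had 20.6, 22.0 and 21.6 CPM on day 5, against 11.9, 11.2 and 12.1 CPM on day 4 (log2 change 0.86 ± 0.19, adjusted p = 0.0031). SNAP25, a subunit of the vesicle fusion complex, had 18.9, 18.9 and 19.3 CPM on day 5, against 11.8, 12.4 and 12.0 CPM on day 4 (log2 change 0.66 ± 0.15, adjusted p = 0.006). GAP43, a growth cone protein, had 30.9, 30.3 and 31.8 CPM on day 5, against 24.4, 20.4 and 18.0 CPM on day 4 (log2 change 0.56 ± 0.13, adjusted p = 0.0056). The day 4 libraries of GAP43 were uneven and those of day 5 close together. ELAVL3, a neuronal RNA-binding protein, and SRRM4, which controls neuronal microexons, changed by 0.45 ± 0.14 and 0.51 ± 0.16 (adjusted p = 0.039 and 0.041). STMN4 and SNAP25 were not called without replicate 1 of every day (adjusted p = 0.089 to 0.15). GAP43 was not called without day 4 replicate 3 (adjusted p = 0.069). ELAVL3 and SRRM4 were not called whichever 1 of the 6 libraries was left out (adjusted p = 0.051 to 0.15).

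**Figure D2:**
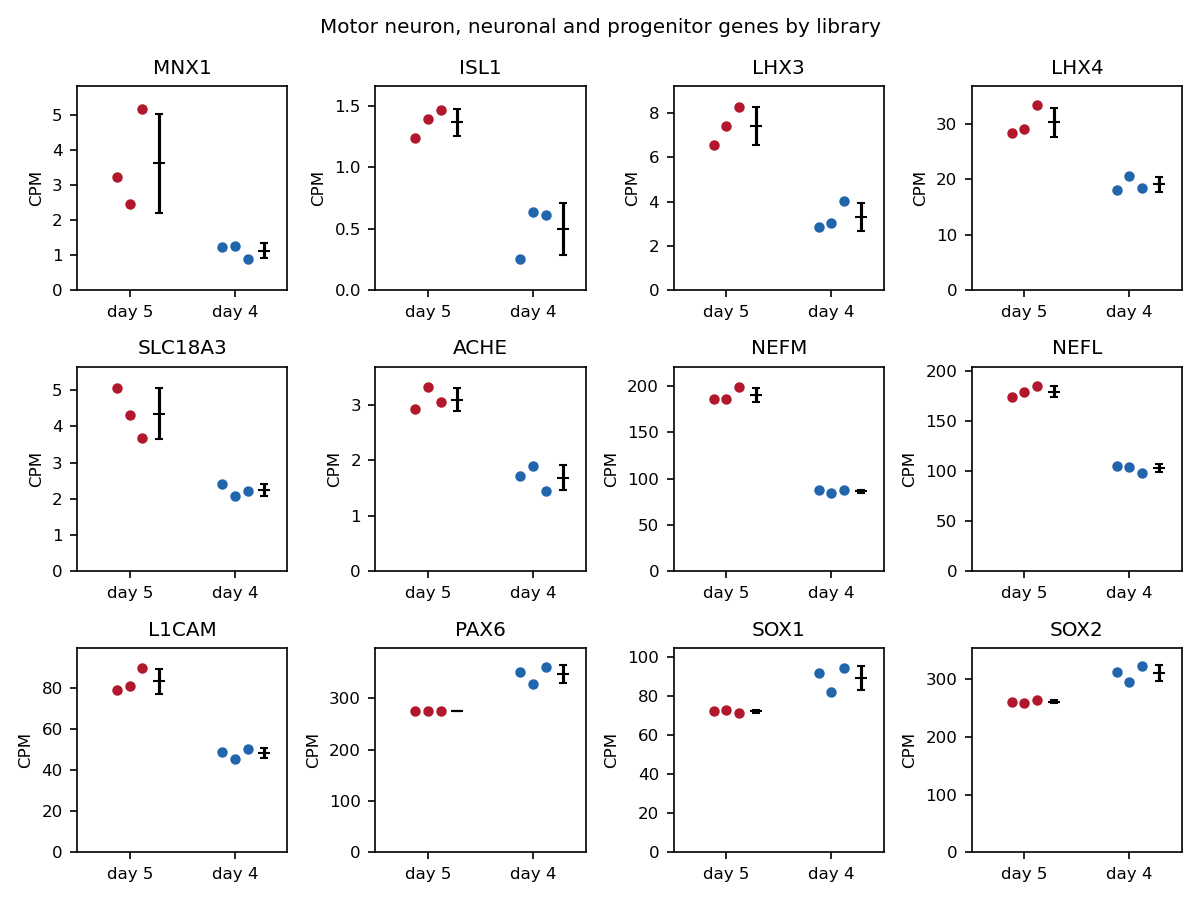
Level in each library (CPM) of 4 motor neuron factors, 2 cholinergic genes, 3 axonal genes and 3 progenitor genes, with day 5 on the left in red and day 4 on the right in blue. Black bars are the mean and SD of 3 libraries. All 9 neuronal genes lie above day 4 in every day 5 library, and PAX6, SOX1 and SOX2 lie below.

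Several well-known neuronal genes were higher in every day 5 library without a call. STMN2, another microtubule regulator, had 257, 258 and 277 CPM on day 5, against 189, 188 and 200.4 CPM on day 4 (log2 change 0.45 ± 0.17, adjusted p = 0.11). DCX, of migrating neurons, had 468, 428 and 461 CPM on day 5, against 325, 394 and 344 CPM on day 4 (log2 change 0.35 ± 0.17, adjusted p = 0.24). TUBB3, the neuronal beta-tubulin, had 936, 926 and 1006 CPM on day 5, against 803, 733 and 849 CPM on day 4 (log2 change 0.27 ± 0.09, adjusted p = 0.08). Their libraries did not overlap, while the spread that entered the test was estimated over all 15 days. Fitted on the 6 libraries of these days alone, STMN2, DCX and TUBB3 passed, with adjusted p = 9.5e-05, 0.015 and 0.0094. In that fit 14 of the 41 panel genes without a call were called. Beside these 3 they were ELAVL4, OLIG2, NEUROG1, NEUROD4, ST18, DLL3, HES1 and CYP26B1, which were higher, and HES5, GLI1 and PTCH1, which were lower. The same fit called 1291 genes in all, of which 920 (71.3%) were shared with the 1307 called among 19436 genes in the fit of all days. Whether the panel gained more calls than other genes was not tested. That fit lost 20 of the 184 calls of named genes.

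Microtubule genes changed in both directions. Of 28 tested, 6 were called higher and 2 lower, with a median log2 change of 0.16. MAPT, the axonal protein tau, had 15.7, 14.8 and 18.1 CPM on day 5, against 9.59, 10.9 and 10.1 CPM on day 4 (log2 change 0.67 ± 0.18, adjusted p = 0.017). KIF5A, a neuronal kinesin, and MAPRE3, a plus-end protein, changed by 0.37 ± 0.09 and 0.34 ± 0.08. The called falls were the broadly used tubulins TUBA1B and TUBB. TUBB had 3357, 3388 and 3404 CPM on day 5, against 3911, 3538 and 3962 CPM on day 4 (log2 change -0.17 ± 0.04, adjusted p = 0.0052) and TUBA1B changed by -0.21 ± 0.04. Of 18 neuronal RNA-binding and splicing genes, 4 were called higher (SRRM4, ELAVL3, CELF3 and KHDRBS3) and 0 lower. MAPT was not called without day 5 replicate 3 or without day 4 replicates 1 or 3 (adjusted p = 0.07 to 0.093). KIF5A, MAPRE3 and TUBA1B were not called without replicate 1 of every day (adjusted p = 0.15 to 0.28). TUBB was not called without day 4 replicate 3, or in the fit of these days alone (adjusted p = 0.058 to 0.067). CELF3 was not called whichever 1 of the 6 libraries was left out (adjusted p = 0.067 to 0.15). KHDRBS3 was not called without day 5 replicates 2 or 3 or without day 4 replicates 2 or 3 (adjusted p = 0.061 to 0.21).

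Some of the genes that drive neurogenesis were called. Of 16 proneural and neurogenic genes tested, 3 were called higher and 1 lower, against 3.95% and 2.78% of all genes tested. Their median log2 change was 0.22, and 14 of the 16 had a fitted change above 0. MYT1L, a zinc finger repressor of non-neuronal genes, had 1.98, 1.45 and 1.30 CPM on day 5, against 0.667, 0.407 and 0.897 CPM on day 4 (log2 change 1.22 ± 0.30, adjusted p = 0.0084). NHLH2, a bHLH factor of newborn neurons, had 8.15, 7.60 and 8.21 CPM on day 5, against 4.57, 4.66 and 4.33 CPM on day 4 (log2 change 0.82 ± 0.16, adjusted p = 0.00081). MYT1, a relative of MYT1L, had 23.6, 22.0 and 25.6 CPM on day 5, against 13.9, 14.4 and 16.7 CPM on day 4 (log2 change 0.66 ± 0.18, adjusted p = 0.022). Day 5 lay above day 4 in every library of these 3 genes. INSM2, a zinc finger factor related to the neurogenic gene INSM1, fell: it had 0.772, 0.473 and 0.711 CPM on day 5, against 1.78, 1.18 and 1.70 CPM on day 4 (log2 change -1.27 ± 0.31, adjusted p = 0.009). NEUROG2, the main proneural factor of motor neuron progenitors, had 163, 154 and 158 CPM on day 5, against 149, 149 and 163 CPM on day 4, with overlap between the days (log2 change 0.04 ± 0.11). NEUROD4 and NEUROG1, other bHLH factors, had log2 changes of 0.45 ± 0.15 and 0.35 ± 0.13 (adjusted p = 0.067 and 0.11). MYT1L was not called without day 5 replicate 1 or without day 4 replicate 2 (adjusted p = 0.051 to 0.07). MYT1 was not called without day 5 replicates 1 or 3 or without day 4 replicates 1 or 2 (adjusted p = 0.056 to 0.094). INSM2 was not called without day 5 replicate 2 (adjusted p = 0.075).

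Of 18 Notch ligands, receptors and modulators, 0 were called by edgeR in the fit of all days, against 6.72% of all genes tested. A count of 0 among 18 lies near that share. In the same list 3 had an unadjusted p under 0.05, against 19.5% of all genes tested. DESeq2 called 0 of them, and their median log2 change was 0.04. DLL1, a ligand of neural progenitors, had 154, 144 and 160.3 CPM on day 5, against 155, 149.6 and 180.3 CPM on day 4 and overlapped between the days. DLL3, which acts within the cell on other Notch components, had 94.1, 95.1 and 104 CPM on day 5, against 67.8, 62.3 and 71.0 CPM on day 4 (log2 change 0.54 ± 0.18, adjusted p = 0.066), and passed in the fit of these days alone (adjusted p = 0.00011). Among 15 HES, HEY and ID repressors, which keep progenitors from differentiating, 3 were called higher and 0 lower. HEY1 had 3.25, 3.31 and 3.24 CPM on day 5, against 2.03, 1.63 and 1.12 CPM on day 4 (log2 change 1.04 ± 0.18, adjusted p = 0.00015). ID3 had 77.8, 86.6 and 74.9 CPM on day 5, against 45.3, 38.3 and 45.2 CPM on day 4 (log2 change 0.89 ± 0.14, adjusted p = 8.8e-05), and ID1 changed by 0.44 ± 0.09 (adjusted p = 0.0019). The Notch target HES5 was lower in every day 5 library without a call, with 133, 130.4 and 136 CPM on day 5, against 160.5, 153 and 186 CPM on day 4 (log2 change -0.32 ± 0.13). HES1, another target, had 20.2, 19.5 and 20.6 CPM on day 5, against 17.3, 15.6 and 14.8 CPM on day 4 (log2 change 0.34 ± 0.15). ID1 was not called without replicate 1 of every day (adjusted p = 0.083).

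Several progenitor transcription factors fell by small amounts. Of 12 neural progenitor genes, 3 were called lower and 0 higher, with a median log2 change of -0.08. PAX6, a homeodomain factor of ventral and other progenitors, had 275, 276 and 275 CPM on day 5, against 352, 328 and 361 CPM on day 4 (log2 change -0.33 ± 0.06, adjusted p = 0.00012). SOX1 had 72.4, 72.9 and 71.3 CPM on day 5, against 91.5, 82.3 and 94.2 CPM on day 4 (log2 change -0.31 ± 0.08, adjusted p = 0.0093). SOX2, like SOX1 a factor that maintains neural progenitors, had 259.5, 259 and 264 CPM on day 5, against 312, 295 and 322 CPM on day 4 (log2 change -0.25 ± 0.07, adjusted p = 0.024). All 3 were lower in every day 5 library, and the day 5 replicates were closer together than the day 4 replicates. Among 9 ventral progenitor factors, 1 was called higher and 2 lower (PAX6 is in both lists). OLIG1, of the motor neuron progenitor domain, had 85.9, 75.8 and 90.2 CPM on day 5, against 53.02, 57.3 and 65.5 CPM on day 4 (log2 change 0.52 ± 0.15, adjusted p = 0.027). IRX3, which marks the domain dorsal to it, had 31.9, 30.5 and 29.8 CPM on day 5, against 40.0, 37.9 and 48.4 CPM on day 4 (log2 change -0.45 ± 0.09, adjusted p = 0.0015). OLIG2, the defining factor of motor neuron progenitors, had 76.3, 73.9 and 81.9 CPM on day 5, against 58.1, 61.9 and 67.6 CPM on day 4 without overlap and without a call (log2 change 0.31 ± 0.12, adjusted p = 0.11). NKX6-1 had 123, 117 and 126 CPM on day 5, against 120.4, 118 and 139 CPM on day 4 and overlapped. PAX6 was not called without replicate 1 of every day (adjusted p = 0.073). SOX1 was not called without day 4 replicate 3 (adjusted p = 0.077). SOX2 was not called without day 5 replicates 1, 2 or 3 or without day 4 replicates 1 or 3 (adjusted p = 0.06 to 0.13). OLIG1 was not called without day 5 replicates 1 or 3 or without day 4 replicates 1 or 2 (adjusted p = 0.075 to 0.12). IRX3 was not called without replicates 1 or 3 of every day or with limma on log2(TPM + 1) (adjusted p = 0.054 to 0.15).

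The called Hedgehog pathway genes mostly fell. Of 15 tested, 3 were called lower and 1 higher, with a median log2 change of -0.19. HHIP, a target that binds the ligand, had 13.3, 11.9 and 14.1 CPM on day 5, against 16.6, 18.0 and 16.9 CPM on day 4 (log2 change -0.39 ± 0.10, adjusted p = 0.0086). The co-receptors GAS1 and CDON changed by -0.32 ± 0.07 and -0.35 ± 0.10 (adjusted p = 0.0036 and 0.028). The targets GLI1 and PTCH1 were lower in every day 5 library, with log2 changes of -0.31 ± 0.10 and -0.26 ± 0.09, and missed the threshold (adjusted p = 0.053 and 0.067). DISP2, related to the ligand release factor DISP1, rose by 0.60 ± 0.17. HHIP was not called without day 5 replicate 2 (adjusted p = 0.08). GAS1 was not called without day 4 replicate 3 (adjusted p = 0.074). CDON was not called without day 5 replicates 1 or 3 or without day 4 replicates 1 or 2 (adjusted p = 0.076 to 0.14). DISP2 was not called whichever 1 of the 6 libraries was left out (adjusted p = 0.06 to 0.11).

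A group of DNA replication genes fell by small amounts. Of 35 tested, 14 were called lower and 0 higher, with a median log2 change of -0.17, and 2 of the 35 had a fitted change above 0. MCM2, a subunit of the replicative helicase, had 392, 382 and 405 CPM on day 5, against 476, 418 and 505 CPM on day 4 (log2 change -0.25 ± 0.06, adjusted p = 0.012). MCM3, another subunit, had 239, 239 and 252 CPM on day 5, against 298, 270.4 and 315 CPM on day 4 (log2 change -0.28 ± 0.06, adjusted p = 0.0058). RFC3, of the clamp loader, changed by -0.25 ± 0.06 and POLE2, of a DNA polymerase, by -0.35 ± 0.10. Of 30 mitosis genes, 2 were called lower (BUB1B, -0.19 ± 0.05, and KIF23, -0.19 ± 0.06) and 0 higher, with a median of -0.12. MKI67, the common proliferation marker, had 924, 859 and 899.7 CPM on day 5, against 907, 1060.0 and 966 CPM on day 4 and overlapped between the days. Among 15 CDK inhibitors, D cyclins and related genes, 3 were called higher and 0 lower: CDKN1C (0.37 ± 0.09) and CDKN2D (0.38 ± 0.12), which inhibit cyclin-dependent kinases, and the antiproliferative BTG1 (0.26 ± 0.06). MCM2 was not called without day 5 replicate 2 or without day 4 replicates 1 or 3 (adjusted p = 0.051 to 0.14). MCM3 was not called without day 4 replicate 3 (adjusted p = 0.075). RFC3 was not called without day 5 replicate 3 or without day 4 replicate 1 (adjusted p = 0.087 to 0.1). POLE2 was not called without day 5 replicate 3 or without day 4 replicates 2 or 3, or in the fit of these days alone (adjusted p = 0.067 to 0.19). BUB1B was not called without day 5 replicates 1 or 3 or without day 4 replicates 1 or 3 (adjusted p = 0.08 to 0.098). KIF23 was not called without day 5 replicates 1 or 3 or without day 4 replicates 1, 2 or 3, or in the fit of these days alone (adjusted p = 0.051 to 0.18). CDKN1C was not called without day 5 replicate 1 (adjusted p = 0.063). CDKN2D was not called whichever 1 of the 6 libraries was left out (adjusted p = 0.05 to 0.13). BTG1 was not called without replicates 1 or 2 of every day (adjusted p = 0.077 to 0.19).

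**Figure D3:**
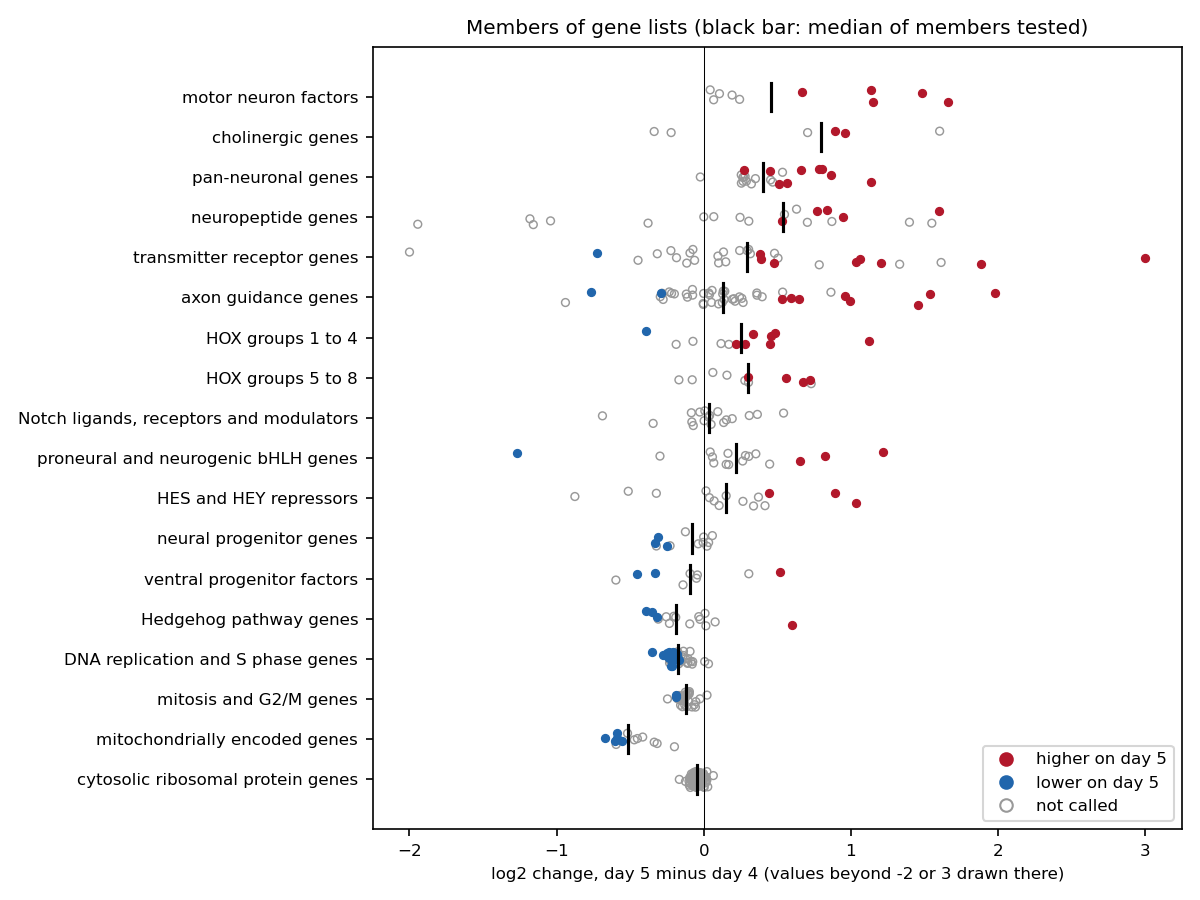
Fitted log2 change (x axis, day 5 minus day 4) of each tested member of 18 gene lists, 1 list per row. Red points were called higher, blue points were called lower, open grey points were not called, and the black bar is the list's median. Values beyond the axis limits, such as that of GRM5, are drawn at the limit. The medians of the motor neuron, cholinergic and pan-neuronal lists lie to the right of 0, and those of the DNA replication and mitochondrially encoded lists to the left.

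Axon guidance and adhesion genes gave some of the strongest rises. Of 45 guidance genes, 8 were called higher and 2 lower, with a median log2 change of 0.13. PLXNA4, a semaphorin co-receptor, had 7.25, 6.12 and 8.25 CPM on day 5, against 1.75, 1.54 and 2.08 CPM on day 4 (log2 change 1.98 ± 0.23, adjusted p = 5.2e-07). EPHA3, an ephrin receptor, had 7.95, 7.27 and 8.89 CPM on day 5, against 2.57, 3.08 and 2.69 CPM on day 4 (log2 change 1.54 ± 0.30, adjusted p = 0.0012). SLIT3, a secreted ligand of ROBO receptors, had 16.9, 17.6 and 20.5 CPM on day 5, against 6.38, 6.47 and 7.08 CPM on day 4 (log2 change 1.46 ± 0.17, adjusted p = 5.2e-07). CHL1, an adhesion protein of the L1 family, had 27.5, 25.9 and 26.7 CPM on day 5, against 12.6, 14.7 and 13.1 CPM on day 4 (log2 change 0.99 ± 0.11, adjusted p = 1.3e-07). In all 4 the lowest day 5 library was well above the highest day 4 library. ROBO3, a receptor that lets commissural axons cross the midline, went the other way with 54.9, 53.9 and 63.1 CPM on day 5, against 102, 95.8 and 94.5 CPM on day 4 (log2 change -0.77 ± 0.11, adjusted p = 6.5e-06). SEMA5A, a transmembrane semaphorin, changed by -0.29 ± 0.08. Among 14 classical cadherins, CDH13 rose (0.97 ± 0.21), and CDH12 and CDH7 fell (-1.82 ± 0.29 and -0.27 ± 0.08). CDH12 had 0.805, 0.591 and 0.395 CPM on day 5, against 2.22, 1.99 and 2.21 CPM on day 4 (adjusted p = 6.3e-05). EPHA3 was not called without replicate 1 of every day (adjusted p = 0.079). SEMA5A was not called without day 5 replicates 2 or 3 or without day 4 replicates 2 or 3, or in the fit of these days alone (adjusted p = 0.055 to 0.11). CDH13 was not called without replicate 3 of every day (adjusted p = 0.06). CDH7 was not called without day 5 replicates 1, 2 or 3 or without day 4 replicates 2 or 3 (adjusted p = 0.068 to 0.19).

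Several transmitter receptor genes rose at low levels. Of 31 tested, 8 were called higher and 1 lower, with a median log2 change of 0.29. GLRA2, the fetal glycine receptor subunit, had 4.19, 4.17 and 5.02 CPM on day 5, against 1.49, 1.13 and 0.961 CPM on day 4 (log2 change 1.88 ± 0.30, adjusted p = 8.6e-05). CHRNA4, a nicotinic receptor subunit, had 5.74, 6.21 and 6.20 CPM on day 5, against 2.76, 2.40 and 3.43 CPM on day 4 (log2 change 1.06 ± 0.22, adjusted p = 0.0018). GLRA1, the adult glycine receptor subunit, had 1.58, 1.48 and 1.07 CPM on day 5, against 0.603, 0.452 and 0.705 CPM on day 4 (log2 change 1.21 ± 0.25, adjusted p = 0.0016). No day 5 library of these genes fell within the day 4 range. GRM5, a metabotropic glutamate receptor, was called with 9 counts on day 5 and 0 on day 4, at least 2.86-fold higher when day 4 is set at a floor of 3 counts in all. GABRA3, a GABA receptor subunit, fell, with 4.76, 5.73 and 4.74 CPM on day 5, against 8.51, 7.51 and 9.13 CPM on day 4 (log2 change -0.72 ± 0.14, adjusted p = 0.00063). CHRNA4 and GABRA3 were not called without replicate 1 of every day (adjusted p = 0.064 to 0.093). GLRA1 was not called without replicates 1 or 2 of every day (adjusted p = 0.084 to 0.096). GRM5 was not called without day 5 replicate 2 or without day 4 replicates 1 or 3 (adjusted p = 0.068 to 0.094).

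Secretory and synaptic genes rose in part. Of 20 neuropeptide and granule genes, 5 were called higher and 0 lower, with a median log2 change of 0.54. CALCB, a CGRP peptide gene, had 1.95, 2.16 and 2.01 CPM on day 5, against 0.826, 0.633 and 0.545 CPM on day 4 (log2 change 1.60 ± 0.29, adjusted p = 0.00032). CHGA, a granule protein, had 11.7, 10.4 and 11.3 CPM on day 5, against 5.81, 6.24 and 6.60 CPM on day 4 (log2 change 0.84 ± 0.19, adjusted p = 0.0057). PCSK1N and SCG2, also of secretory granules, changed by 0.95 ± 0.24 and 0.77 ± 0.24. Of 34 synaptic vesicle and active zone genes, 6 were called higher and 1 lower, with a median of 0.26. The vesicle GTPase RAB3A had 9.46, 8.33 and 10.2 CPM on day 5, against 4.86, 5.56 and 5.90 CPM on day 4 (log2 change 0.78 ± 0.19, adjusted p = 0.0084), while its relative RAB3B fell by log2 -0.40 ± 0.09. Of 32 voltage-gated channel genes, 4 were called higher (CACNA2D1, CACNA1D, SCN3B and KCNH2) and 1 lower (CACNA1A, -0.39 ± 0.11). KCNH2, a potassium channel, had 52.97, 47.3 and 54.3 CPM on day 5, against 35.6, 33.5 and 34.7 CPM on day 4 (log2 change 0.57 ± 0.11, adjusted p = 0.0012). Among 15 genes that make or carry other transmitters, 0 were called higher and 1 lower, SLC18A2, the vesicular monoamine transporter, with 1.31, 0.946 and 1.07 CPM on day 5, against 2.41, 1.90 and 1.63 CPM on day 4 (log2 change -0.84 ± 0.23, adjusted p = 0.021). CHGA, SCN3B and KCNH2 were not called without replicate 1 of every day (adjusted p = 0.061 to 0.17). PCSK1N was not called without day 5 replicate 1 (adjusted p = 0.08). SCG2 was not called whichever 1 of the 6 libraries was left out (adjusted p = 0.083 to 0.15). RAB3A was not called without day 4 replicate 1 (adjusted p = 0.053). RAB3B was not called without day 4 replicate 2, or in the fit of these days alone (adjusted p = 0.052 to 0.055). CACNA2D1 was not called without day 5 replicate 3 or without day 4 replicate 3 (adjusted p = 0.076 to 0.11). CACNA1D was not called without day 5 replicate 3 or without day 4 replicates 1 or 2, or in the fit of these days alone (adjusted p = 0.05 to 0.14). CACNA1A was not called without day 5 replicates 2 or 3 or without day 4 replicate 2, or in the fit of these days alone (adjusted p = 0.11 to 0.28). SLC18A2 was not called without day 5 replicates 2 or 3 or without day 4 replicate 1 (adjusted p = 0.074 to 0.14).

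HOX genes, which set position along the spinal cord, rose in each of the A, B, C and D clusters. Of 12 tested genes of groups 1 to 4, 7 were called higher and 1 lower, with a median log2 change of 0.25. Of 11 tested of groups 5 to 8, 4 were called higher and 0 lower, with a median of 0.30, and of 4 tested of groups 9 to 13, 1 was higher and 0 lower. HOXA4 had 18.8, 18.0 and 19.9 CPM on day 5, against 9.24, 7.64 and 9.04 CPM on day 4 (log2 change 1.12 ± 0.16, adjusted p = 1.6e-05). HOXA5 had 30.2, 31.9 and 32.9 CPM on day 5, against 20.5, 18.2 and 18.9 CPM on day 4 (log2 change 0.72 ± 0.07, adjusted p = 7.1e-09), and HOXC6 had 18.4, 19.1 and 19.2 CPM on day 5, against 11.3, 10.8 and 13.3 CPM on day 4 (log2 change 0.67 ± 0.12, adjusted p = 0.00028). These 3 genes were higher in every day 5 library. HOXB9 had 703, 715 and 730.0 CPM on day 5, against 497, 481 and 532 CPM on day 4 (log2 change 0.51 ± 0.05, adjusted p = 1.6e-08). HOXB1, HOXB2, HOXA3, HOXB8 and HOXD8 changed by 0.45 ± 0.07, 0.49 ± 0.06, 0.46 ± 0.07, 0.30 ± 0.05 and 0.56 ± 0.08. HOXD3 was the exception among called genes, with 21.9, 23.7 and 21.1 CPM on day 5, against 27.2, 32.1 and 28.6 CPM on day 4 (log2 change -0.40 ± 0.12, adjusted p = 0.03). HOXA3, HOXA4, HOXA5, HOXB8, HOXB9, HOXC6 and HOXD3 overlap a neighbour in their cluster in the annotation, so their counts can share reads. Of 8 HOX cofactors, MEIS3 (0.39 ± 0.06) and MEIS2 (0.30 ± 0.09) rose and 0 fell. CDX2, a caudal factor of neuromesodermal cells that acts above HOX genes, fell, with 4.60, 3.37 and 4.86 CPM on day 5, against 9.14, 9.81 and 10.6 CPM on day 4 (log2 change -1.22 ± 0.12, adjusted p = 4e-09). HOXC6 was not called without replicate 1 of every day (adjusted p = 0.063). HOXD3 was not called without day 5 replicates 1 or 3 or without day 4 replicates 2 or 3 (adjusted p = 0.076 to 0.13). MEIS2 was not called whichever 1 of the 6 libraries was left out (adjusted p = 0.052 to 0.14).

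Retinoic acid genes changed in both directions. Of 19 tested, 4 were called higher and 2 lower, with a median log2 change of 0. CYP26A1, the RA-degrading enzyme that RA itself induces, had 16.8, 16.8 and 16.4 CPM on day 5, against 9.27, 8.50 and 11.2 CPM on day 4 (log2 change 0.78 ± 0.23, adjusted p = 0.033). DHRS3, a retinaldehyde reductase also induced by RA, had 38.2, 41.0 and 42.3 CPM on day 5, against 26.6, 25.5 and 26.8 CPM on day 4 (log2 change 0.62 ± 0.15, adjusted p = 0.0083). Of the receptors, RXRG had 2.78, 2.72 and 3.00 CPM on day 5, against 1.17, 1.27 and 1.03 CPM on day 4 (log2 change 1.30 ± 0.24, adjusted p = 0.00038), RARA rose by 0.32 ± 0.06 and RXRA fell by log2 -0.17 ± 0.05. CRABP1, a cytoplasmic RA-binding protein, had 323, 301 and 367 CPM on day 5, against 451, 421 and 502 CPM on day 4 (log2 change -0.47 ± 0.11, adjusted p = 0.0084). CYP26B1, a relative of CYP26A1, had 2.45, 2.75 and 3.00 CPM on day 5, against 1.46, 0.904 and 1.25 CPM on day 4 without overlap and without a call (log2 change 1.15 ± 0.50). CYP26A1 was not called whichever 1 of the 6 libraries was left out (adjusted p = 0.053 to 0.11). DHRS3 was not called without replicates 1 or 3 of every day (adjusted p = 0.064 to 0.14). RXRA was not called without day 5 replicates 1 or 2 or without day 4 replicates 1, 2 or 3, or in the fit of these days alone (adjusted p = 0.055 to 0.18). CRABP1 was not called without day 5 replicate 2 or without day 4 replicate 3 (adjusted p = 0.066 to 0.078).

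FGF, Wnt and BMP genes each held some called members, where 6.72% of all genes tested were called. Of 21 FGF and feedback genes, 3 were called higher and 2 lower. FGFR4, an FGF receptor, had 18.1, 18.2 and 17.7 CPM on day 5, against 33.8, 29.7 and 35.5 CPM on day 4 (log2 change -0.88 ± 0.11, adjusted p = 6.2e-07), and DUSP4, a MAP kinase phosphatase, had 169, 172 and 169 CPM on day 5, against 127, 115 and 114 CPM on day 4 (log2 change 0.51 ± 0.09, adjusted p = 0.00039). Of 22 Wnt genes, 3 were called higher and 2 lower. The ligand WNT7B had 0.772, 0.828 and 0.592 CPM on day 5, against 0.159, 0.181 and 0.224 CPM on day 4 (log2 change 1.94 ± 0.35, adjusted p = 0.00025), and LEF1, a transcription factor and target of the pathway, had 24.3, 24.8 and 22.0 CPM on day 5, against 33.6, 35.3 and 37.0 CPM on day 4 (log2 change -0.57 ± 0.15, adjusted p = 0.013). Of 17 BMP and TGF-beta readout genes, 3 were called higher and 0 lower, with a median log2 change of 0.35, and ID1 and ID3 of the repressor list are 2 of them. SMAD7, the inhibitory SMAD and a target of both pathways, had 9.49, 10.0 and 9.44 CPM on day 5, against 5.37, 6.42 and 5.70 CPM on day 4 (log2 change 0.74 ± 0.10, adjusted p = 6e-06). WNT7B was not called without replicate 1 of every day (adjusted p = 0.084). LEF1 was not called without day 5 replicate 3 or without day 4 replicate 3 (adjusted p = 0.068 to 0.072).

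Genes of neighbouring neuron classes moved unevenly. Of 13 tested factors of V0 to V2 interneurons, 0 were called higher and 2 lower. BHLHE22, a bHLH factor, had 10.4, 11.0 and 9.64 CPM on day 5, against 14.4, 15.5 and 16.2 CPM on day 4 (log2 change -0.57 ± 0.16, adjusted p = 0.029). GATA2, of V2b interneurons, had 1.64, 1.68 and 1.74 CPM on day 5, against 3.30, 2.62 and 3.62 CPM on day 4 (log2 change -0.92 ± 0.28, adjusted p = 0.035). Both genes were lower in every day 5 library. EN1, of V1 interneurons, had 2.42, 2.72 and 1.78 CPM on day 5, against 1.65, 1.58 and 0.993 CPM on day 4 (log2 change 0.72 ± 0.26, adjusted p = 0.087). Of 6 tested dorsal interneuron factors, 0 were called by edgeR, 3 had an unadjusted p under 0.05 and 1 was called by DESeq2. PHOX2A, of hindbrain visceral motor neurons, had 1.38, 1.54 and 1.62 CPM on day 5, against 0.762, 0.497 and 0.641 CPM on day 4 (log2 change 1.23 ± 0.30, adjusted p = 0.0087). FOXP2 rose by 0.68 ± 0.19. Of 11 floor plate and p3 genes, FOXA1 alone was called (0.56 ± 0.15), and FOXA2 and NKX2-2 stayed under 1 CPM in every library of both days. Of 12 roof plate and neural crest genes, the dorsal factors ZIC5 (-0.65 ± 0.17) and ZIC2 (-0.33 ± 0.10) fell and 0 rose. BHLHE22 was not called without day 5 replicates 1, 2 or 3 or without day 4 replicates 2 or 3 (adjusted p = 0.059 to 0.13). GATA2 and ZIC2 were not called without day 5 replicates 1, 2 or 3 or without day 4 replicates 1 or 3 (adjusted p = 0.09 to 0.17). PHOX2A was not called without replicates 1, 2 or 3 of every day (adjusted p = 0.058 to 0.11). FOXP2 was not called without day 5 replicates 1 or 2 or without day 4 replicates 1 or 3 (adjusted p = 0.063 to 0.17). FOXA1 was not called without day 5 replicates 2 or 3 or without day 4 replicate 3 (adjusted p = 0.053 to 0.14). ZIC5 was not called without day 5 replicate 3 or without day 4 replicate 1 (adjusted p = 0.074 to 0.12).

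The largest rises among genes of at least 10 CPM included matrix genes beside neuronal ones. COL8A1, a short-chain collagen, had 11.5, 13.7 and 13.1 CPM on day 5, against 2.86, 2.31 and 1.38 CPM on day 4 (log2 change 2.56 ± 0.44, adjusted p = 0.00029). ISLR2, a membrane protein of developing axons, had 15.6, 14.6 and 16.7 CPM on day 5, against 3.75, 4.34 and 3.65 CPM on day 4 (log2 change 2.00 ± 0.21, adjusted p = 5.2e-08). TMOD1, which caps actin filaments, had 11.7, 13.8 and 11.4 CPM on day 5, against 3.94, 3.08 and 2.44 CPM on day 4 (log2 change 1.96 ± 0.31, adjusted p = 8.5e-05). The day 5 libraries of these 3 genes lay far above those of day 4, but non-overlap was a condition of their choice. ZNF536, a zinc finger repressor of neuronal differentiation, had 13.3, 11.6 and 12.5 CPM on day 5, against 4.32, 4.21 and 2.47 CPM on day 4 (log2 change 1.78 ± 0.13, adjusted p = 1.9e-12). The fibrillar collagen gene COL1A1 had 43.6, 56.1 and 55.4 CPM on day 5, against 20.2, 16.0 and 12.4 CPM on day 4 (log2 change 1.68 ± 0.42, adjusted p = 0.012), and ITGA4, an integrin subunit, had 13.3, 15.0 and 13.8 CPM on day 5, against 5.78, 5.20 and 2.92 CPM on day 4 (log2 change 1.61 ± 0.39, adjusted p = 0.0096). UBD, FAM198B, MATN2, PDGFB, MAF, GLIS3 and HSPB8 had log2 changes of 1.72, 1.52, 1.43, 1.27, 1.23, 1.15 and 1.15. In COL8A1, COL1A1, ITGA4, UBD, FAM198B, MATN2, PDGFB, MAF, GLIS3 and HSPB8, day 4 replicate 3 was the lowest of the 6 libraries. The mesoderm marker sum given above was also higher in every day 5 library, and FOXC2 of that list had 128 counts on day 5 and 44 on day 4 (adjusted p = 0.12). The other members TCF15, MEOX1, FOXC1 and TBX6 had 157, 85, 60 and 14 counts on day 5, against 129, 63, 59 and 19 counts on day 4. The part of such cells in the rise of these genes was not tested. Of 34 matrix genes tested, 5 were called higher and 2 lower, with a median log2 change of 0.04, and the nidogens NID2 (-0.58 ± 0.12) and NID1 (-0.16 ± 0.05) fell. COL1A1 and ITGA4 were not called without day 4 replicate 3 (adjusted p = 0.083 to 0.089). MATN2 was not called without day 5 replicates 1, 2 or 3 or without day 4 replicates 2 or 3 (adjusted p = 0.058 to 0.2). PDGFB and GLIS3 were not called without day 5 replicate 2 or without day 4 replicate 3, or in the fit of these days alone (adjusted p = 0.057 to 0.15). HSPB8 was not called in the fit of these days alone (adjusted p = 0.07). NID2 was not called without replicate 1 of every day (adjusted p = 0.15). NID1 was not called without day 5 replicates 1, 2 or 3 or without day 4 replicates 1 or 3 (adjusted p = 0.068 to 0.21).

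The largest falls were smaller in size. FREM1, a basement membrane matrix protein, had 11.4, 10.8 and 10.9 CPM on day 5, against 23.8, 21.7 and 24.8 CPM on day 4 (log2 change -1.09 ± 0.22, adjusted p = 0.0018). LIX1 had 18.0, 19.1 and 17.8 CPM on day 5, against 41.6, 37.4 and 36.2 CPM on day 4 (log2 change -1.07 ± 0.12, adjusted p = 1.6e-07). SCUBE2, which helps release Hedgehog ligands, had 9.96, 9.34 and 8.33 CPM on day 5, against 16.8, 15.9 and 17.2 CPM on day 4 (log2 change -0.85 ± 0.15, adjusted p = 0.00031). Every day 5 library of these 3 genes was below every day 4 library, but non-overlap was a condition of their choice. CSMD2, CNKSR3, TEK, ROR2, FAP, SMOC1, ST8SIA5, RASGEF1B and SPOCK2 had log2 changes of -0.77, -0.75, -0.73, -0.73, -0.70, -0.68, -0.64, -0.63 and -0.63. ROR2 is a Wnt receptor and TEK an endothelial receptor kinase. Other endothelial genes were not called: CLDN5 had a log2 change of 1.17 ± 0.39, KDR of 0.47 ± 0.26, CDH5 of -0.03 ± 0.30 and PECAM1, with 6 counts on day 5 and 16 on day 4, of -1.43 ± 0.78. FREM1, ROR2 and SPOCK2 were not called without replicate 1 of every day (adjusted p = 0.051 to 0.1). CSMD2 and ST8SIA5 were not called with limma on log2(TPM + 1) (adjusted p = 0.15 to 0.58). TEK was not called without day 4 replicate 1 (adjusted p = 0.057). FAP was not called without day 5 replicates 1, 2 or 3 or without day 4 replicates 1 or 3 (adjusted p = 0.06 to 0.16). SMOC1 was not called without day 5 replicates 1 or 2 or without day 4 replicate 3 (adjusted p = 0.1 to 0.28). RASGEF1B was not called without replicates 1 or 2 of every day or with limma on log2(TPM + 1) (adjusted p = 0.064 to 0.099).

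**Figure D4:**
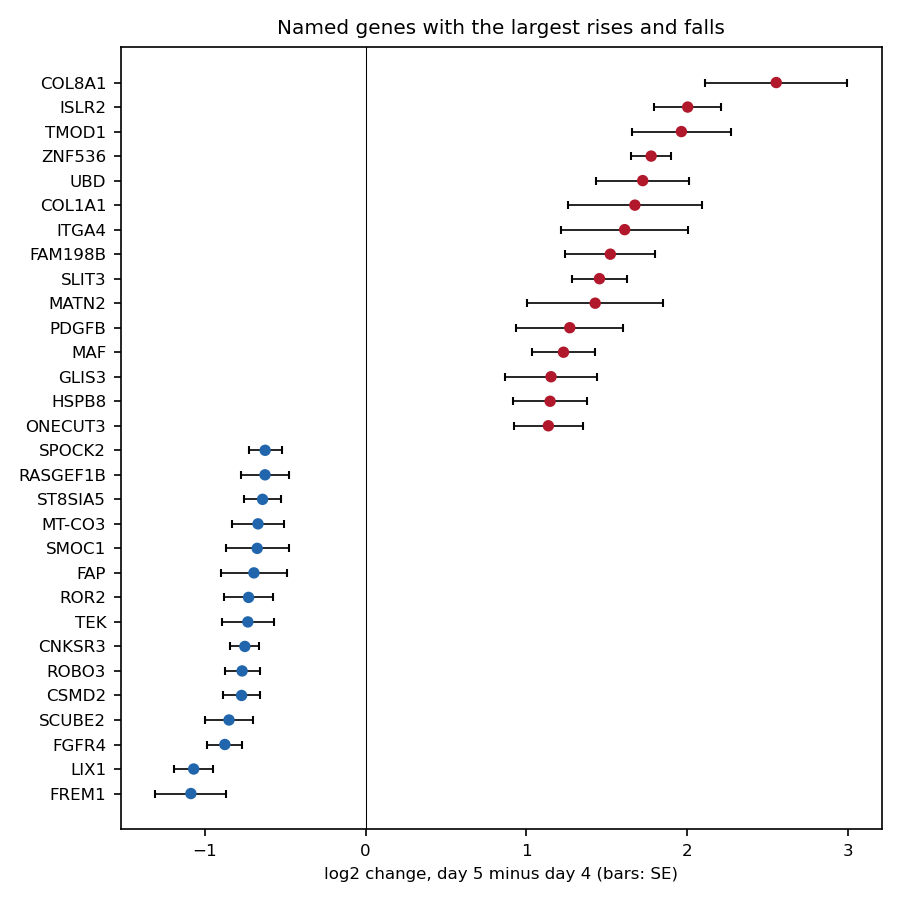
Fitted log2 change (x axis, day 5 minus day 4, bars are SE) of the 15 protein-coding genes with the largest rises (red) and the 15 with the largest falls (blue) among called genes of at least 10 CPM on the higher day without overlap. Rises run from 1.14 for ONECUT3 to 2.56 for COL8A1, and falls from -0.63 for SPOCK2 to -1.09 for FREM1.

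Mitochondrially encoded transcripts were lower on day 5. Of 13 tested, 5 were called lower and 0 higher, with a median log2 change of -0.52, and no member had a fitted change above 0. MT-CO3, a cytochrome oxidase subunit, had 1901, 2189 and 2038 CPM on day 5, against 3640.3, 2788 and 3322 CPM on day 4 (log2 change -0.67 ± 0.16, adjusted p = 0.0091). MT-CO1, another subunit, changed by -0.59 ± 0.17, and MT-ND1, of complex I, by -0.61 ± 0.16. Mitochondrial genes held 2.93%, 2.85% and 2.87% of the counts on day 5, against 3.67%, 4.15% and 3.78% on day 4 (exact permutation test, 2-sided p = 0.1, the smallest that 3 against 3 libraries allow). Whether this share reflects the cells or the RNA preparation was not tested. Of 78 nuclear genes of oxidative phosphorylation, 0 were called by edgeR, 4 had an unadjusted p under 0.05 and 0 were called by DESeq2, with a median of -0.01. MT-CO3 was not called without day 5 replicate 1 or without day 4 replicate 1 (adjusted p = 0.052 to 0.054). MT-CO1 was not called without day 5 replicates 1, 2 or 3 or without day 4 replicates 1 or 3 (adjusted p = 0.059 to 0.11). MT-ND1 was not called without day 5 replicates 1 or 3 or without day 4 replicates 1 or 3 (adjusted p = 0.057 to 0.091).

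Several housekeeping lists gave 0 calls, where 6.72% of all genes tested were called. Of 82 ribosomal protein genes, 0 were called by edgeR, 4 had an unadjusted p under 0.05 and 2 were called by DESeq2, with a median of -0.05. For 36 proteasome genes these counts were 0, 4 and 0, for 23 cholesterol synthesis genes 0, 3 and 0, for 11 heat shock genes 0, 3 and 2, and for 12 BAF complex genes 0, 4 and 1. Of 25 glycolysis and hypoxia genes, 1 was called higher (NDRG1, 0.69 ± 0.10) and 2 lower, with HK2, the first enzyme of glycolysis, at 58.3, 60.0 and 58.3 CPM on day 5, against 75.4, 74.5 and 73.7 CPM on day 4 (log2 change -0.34 ± 0.05, adjusted p = 3.2e-06). The growth factor VEGFA, also a hypoxia target, changed by -0.35 ± 0.11. Of 16 immediate early genes, JUNB (0.79 ± 0.23) and JUN (0.35 ± 0.09) rose, of 17 p53 targets MDM2 rose (0.34 ± 0.09), and of 16 stress genes TRIB3 rose (0.79 ± 0.19), with 0 lower in all 3 lists. Of 15 imprinted growth genes, 3 were called higher and 1 lower, and the linked IGF2 and H19 had log2 changes of 0.75 ± 0.19 and 0.68 ± 0.19. VEGFA was not called whichever 1 of the 6 libraries was left out (adjusted p = 0.065 to 0.15). JUNB was not called without day 5 replicates 2 or 3 or without day 4 replicates 2 or 3 (adjusted p = 0.079 to 0.16). JUN was not called without day 5 replicates 2 or 3 or without day 4 replicate 3, or in the fit of these days alone (adjusted p = 0.059 to 0.21). MDM2 was not called without day 5 replicates 1 or 2 or without day 4 replicate 3 (adjusted p = 0.061 to 0.16). TRIB3 was not called without day 4 replicate 3 (adjusted p = 0.084). IGF2 was not called without day 5 replicate 2 or without day 4 replicate 3 (adjusted p = 0.056 to 0.061). H19 was not called without day 5 replicates 2 or 3 or without day 4 replicates 1, 2 or 3 (adjusted p = 0.051 to 0.11).

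Whether the change of this day differed from that of the days around it was tested in 2 contrasts. The change from day 4 to day 5 minus the change from day 5 to day 6 was called for 31 genes (0.159%), positive for 19 (0.0978%) and negative for 12 (0.0617%). Minus the daily change from day 2 to day 4, it was called for 401 genes (2.06%), positive for 105 (0.54%) and negative for 296 (1.52%). Each contrast shares its middle day between the changes compared. Of 10 motor neuron factors and 22 pan-neuronal genes, 0 were called in the first. CYP26A1 had 9.65 ± 1.4 CPM on day 4, 16.6 ± 0.26 CPM on day 5 and 5.90 ± 0.38 CPM on day 6 (SD, n = 3 each; difference 2.28 ± 0.39 on the log2 scale, adjusted p = 0.0027). Day 5 was thus a peak for CYP26A1 between lower neighbours. Later in the course its level alternated, with days 9, 11, 13 and 15 above the even days beside them. HOXB1 had 75.8 ± 6.0 CPM on day 4, 104 ± 5.3 CPM on day 5 and 84.4 ± 3.2 CPM on day 6 (difference 0.74 ± 0.13, adjusted p = 0.0023). NR3C1, the glucocorticoid receptor, had 29.8 ± 2.3 CPM on day 4, 52.5 ± 3.1 CPM on day 5 and 52.1 ± 3.1 CPM on day 6 (difference 0.83 ± 0.11, adjusted p = 1e-05). The day 5 and day 6 levels of NR3C1 lay within each other's spread. HOXB2, HOXB3, HOXA5 and HOXB9 were also called positive in this contrast. The calls of this contrast leaned on replicate 1: with replicate 1 of every day left out, 2 genes were positive and 0 negative, and none of these 7 genes was called (adjusted p = 0.068 to 0.51). Without replicate 2 the counts were 6 and 0, and HOXB1, HOXB2, HOXA5 and HOXB9 were not called (adjusted p = 0.11 to 0.14). Without replicate 3 they were 21 and 3, and HOXB2 and HOXA5 were not called (adjusted p = 0.061 and 0.068).

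Against the pace of days 2 to 4, most called differences were negative in the edgeR fit of all days. Limma called more positive than negative ones (175 and 121 on log2(TPM + 1), 164 and 121 on log2(TPM + 0.1)). ROBO3 had 5.44 ± 1.0 CPM on day 2, 97.6 ± 4.2 CPM on day 4 and 57.3 ± 5.0 CPM on day 5, so day 4 was its high point of these days (difference -2.85 ± 0.14 per day, adjusted p = 4.9e-17). CRABP1 had the same shape, with 28.5 ± 0.49, 458 ± 41 and 330.2 ± 34 CPM on days 2, 4 and 5 (difference -2.47 ± 0.15). LHX4 of the motor neuron factors, OLIG1 and OLIG2 of the ventral factors, and GAP43, STMN2 and STMN4 of the pan-neuronal genes were also called negative. Unlike ROBO3 and CRABP1, these genes were higher in every day 5 library than on day 4, so they rose by less per day than before. ID3 was lowest on day 4, with 68.2 ± 3.5 CPM on day 2, 42.9 ± 4.0 CPM on day 4 and 79.8 ± 6.1 CPM on day 5 (difference 1.22 ± 0.19, adjusted p = 0.00013). PAX6, SOX1 and SOX2 were not called in either contrast. With replicate 1 of every day left out, 16 genes were positive and 70 negative, and ROBO3, CRABP1, ID3, OLIG1 and OLIG2 were still called, while LHX4, GAP43, STMN2 and STMN4 were not (adjusted p = 0.072, 0.5, 0.13 and 0.099). The counts were 34 and 113 without replicate 2, where GAP43 was not called (adjusted p = 0.12), and 70 and 187 without replicate 3, where STMN4 was not (adjusted p = 0.054).

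**Figure D5:**
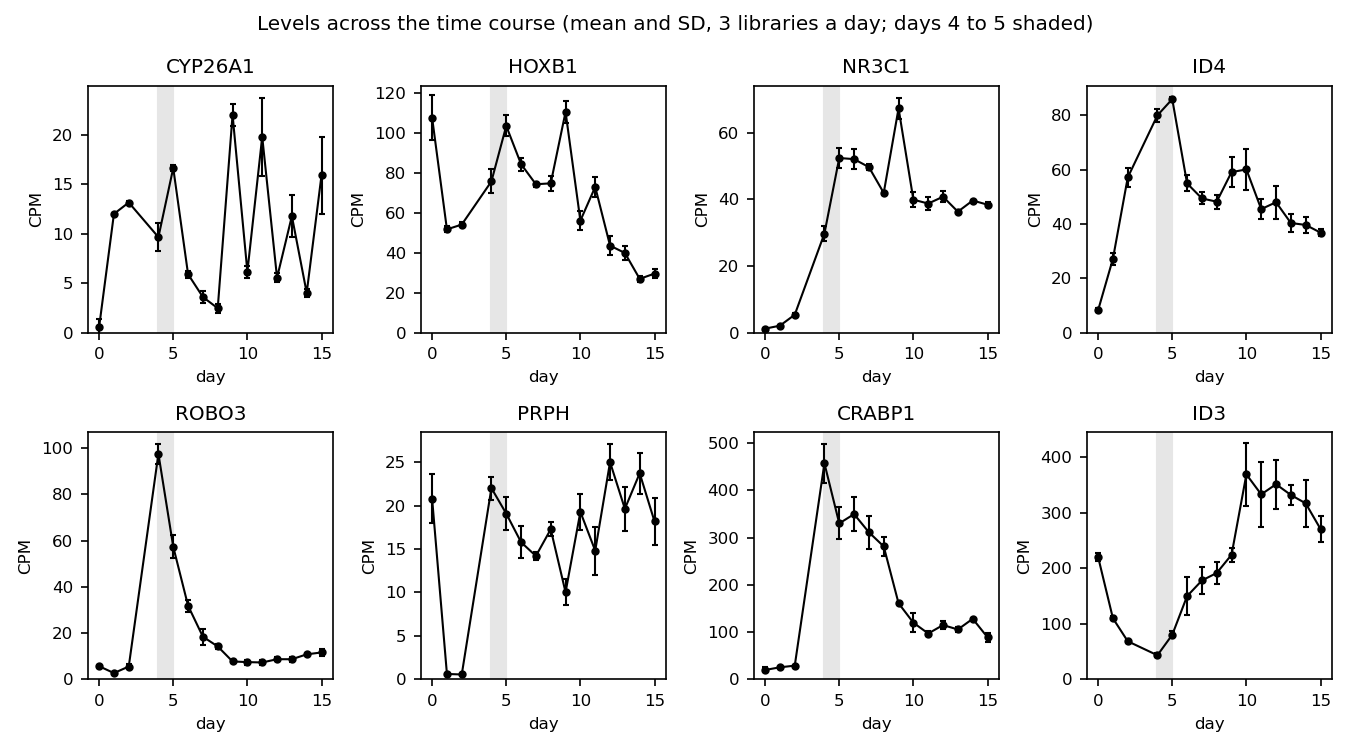
Mean level (CPM, bars are SD of 3 libraries) on each day from 0 to 15 of 8 genes named by the tests of difference, with the interval from day 4 to day 5 shaded. The upper row shows genes with a positive difference against the next day, and the lower row shows genes set against days 2 to 4; CYP26A1, at 16.6 CPM on day 5, lies above days 4 and 6 and below days 9 and 11, and ROBO3 is highest on day 4.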

How the data were processed

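Bulk RNA-seq was analysed from 45 human libraries covering 15 days, 3 a day. The authors deposited expected counts per gene, and TPM for the same libraries, both from RSEM per the labels and the submitters' processing notes, which also name bcl2fastq 2.20.0 and GRCh38. Which aligner, annotation release and strand setting were used is not given in the sources used here. Of 58233 genes, 57895 were matched to GENCODE 29; the other 338 held 0.0276% of counts. Samples were grouped by the labelled day.

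Expected counts, of which 92.5% were whole as deposited, were rounded and fitted with edgeR 4.0.16 (R 4.3.3): TMM scaling, its filter on low counts by day, and the quasi-likelihood test with Benjamini-Hochberg adjustment over 19436 genes. All libraries entered, with day as the factor and 30 residual degrees of freedom; calls were made at 0.05. All adjusted p-values are from this test unless another is named. Each difference contrast set the change from day 4 to day 5 against that from day 5 to day 6 or per day from day 2 to day 4. Alternatives were DESeq2 1.42.0, its size factors in edgeR, no filter, these days alone, the replicate number as a block, limma 3.58.1 on log2(TPM + 1) or log2(TPM + 0.1), a threshold of 0.01, and leaving out each library or replicate number. Steps were tested on simulated data.

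Named genes were the 15 called protein-coding genes with the largest change each way at 10 CPM or more without overlap between days, up to 4 called members each way of each of 60 gene lists, a panel of 63 genes, and 8 genes each way per difference contrast; names outside this rule are given to complete a count or a list. The members and lists were chosen with earlier results of these data known, and some genes stand in several lists. Of the listed symbols, 2 matched no gene. Some genes that entered the fit are not reported here, by name or in the counts of lists. Promoter sequences are RefSeq's, on GRCh38.p14, and where a gene had several entries the first was used; 168 of 236 named genes had one. Motifs were searched on both strands.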

Additional observations from a re-analysis of the deposited data

Results flagged for a closer look

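The change from day 4 to day 5 differed from the change from day 5 to day 6 for 31 genes in edgeR's test of the difference itself, positive for 19 and negative for 12. The positive ones named were CYP26A1 (difference 2.28 on the log2 scale), PDE8B (1.19), NDRG1 (1.12), NR3C1 (0.83), ADAMTS9 (0.81), PNMA8C (0.76), ID4 (0.75) and HOXB1 (0.74). PNMA8C, PDE8B and ADAMTS9 were highest on day 5 among days 4 to 6. The negative ones named were NYNRIN (-1.01), IGLON5 (-0.87), HSPA1B (-0.59), ADGRL1 (-0.56), PXYLP1 (-0.39), POP1 (-0.37), UHRF2 (-0.36) and DNAJB1 (-0.34), of which HSPA1B and DNAJB1 encode heat shock chaperones. HSPA1B has a near-identical copy, so its counts are uncertain.

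The change from day 4 to day 5 differed from the daily change from day 2 to day 4 for 401 genes, positive for 105 and negative for 296. Positive differences were largest for KEL (2.57), HES3 (2.14), WNT2B (1.92), IGF2 (1.36), ID3 (1.22), ABTB2 (1.22), PDZRN3 (1.10) and PPP2R2B (0.92) among genes of at least 10 CPM on 1 of days 2, 4 and 5. KEL and HES3 reached that level on day 2 alone, with 13.7 and 14.3 CPM, and lay at 0.413 and 0.250 CPM on day 5 and 0.388 and 0.368 CPM on day 4. The negative ones named were PRPH (-2.89), ROBO3 (-2.85), RGS4 (-2.76), CRABP1 (-2.47), TNFRSF9 (-2.44), THSD7A (-2.43), SCRT1 (-2.10) and P2RX3 (-2.03). TNFRSF9, THSD7A and P2RX3 were nevertheless called higher on day 5 than on day 4 (adjusted p = 0.018, 0.027 and 0.042). On day 2 they had 0.0473, 0.176 and 0.641 CPM. Their levels were 7.16, 12.6 and 24.2 CPM on day 4 and 15.6, 19.3 and 36.5 CPM on day 5. Their rise per day was thus smaller than that from a low day 2 level. None of them was called without day 4 replicate 3 (adjusted p = 0.078 to 0.16). Of the FGF feedback list, 7 of 21 genes were negative (ETV1, ETV4, ETV5, IL17RD, SPRED1, SPRED3 and SPRY2). So were 5 of 13 V0 to V2 interneuron factors and 5 of 16 proneural genes, against 1.52% of all genes tested. These were the lists with the most negative calls, and many other lists held none. Because day 4 enters both changes of this contrast and day 5 both of the other, a day that stands apart moves them together. Whether medium exchange moved with any of these was not tested.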

How the results depend on the processing

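The numbers of genes called varied with the processing, and the causes were not tested. At an adjusted p under 0.01, 387 genes were higher and 196 lower, with 104 and 16 of at least 2-fold. Genes lower numbered 249 with no filter on low counts, 189 with limma on log2(TPM + 1) and 148 on log2(TPM + 0.1). On log2(TPM + 1), 42 genes were higher and 8 lower by at least 2-fold. Leaving out 1 library or replicate number gave 244 to 664 higher, 82 to 505 lower, and 85 to 182 and 12 to 33 of at least 2-fold. For the difference from the change of day 5 to day 6, DESeq2 called 38 positive and 23 negative, the days compared alone gave 4 negative, limma gave 2 negative on log2(TPM + 1) and 10 positive and 4 negative on log2(TPM + 0.1), a threshold of 0.01 left 1 negative, and leaving out a replicate number gave 2 to 21 positive and 0 to 3 negative. For the difference from days 2 to 4, the days alone gave 256 positive. Limma gave 175 positive and 121 negative on log2(TPM + 1), and 164 and 121 on log2(TPM + 0.1). A threshold of 0.01 left 41 and 159, and leaving out a replicate number gave 16 to 70 and 70 to 187. Where a setting of these 2 differences is given with 1 direction alone, the other count is not listed here. The balance of directions under such a setting cannot be read from these numbers.

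Over 11601 genes, deviations of same-numbered libraries correlated at -0.37, -0.11 and 0.25, and those of other-numbered libraries at -0.21 to 0.38. With 3 libraries a day, deviations from the mean of a day are tied to each other. These values therefore cannot decide whether replicate numbers pair the samples. With the replicate number as a block, 779 genes were higher and 542 lower, of which 1267 were shared with the unblocked fit, and the named calls of CELF3, FGFR1, POP1, SRRM4 and VEGFA were lost (adjusted p = 0.05 to 0.057). Of 184 named calls, 47 passed under all 15 alternatives and 137 were lost under at least 1, most often without replicate 1 of every day (121). Genes under about 1 CPM rest on few counts, and small falls of abundant genes on close replicates.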

Other observations

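Several genes of pluripotent and early cells were lower. Of 7 pluripotency genes tested, 2 were called lower and 0 higher: L1TD1 (-0.93 ± 0.30), an RNA-binding protein of stem cells, and LIN28A (-0.28 ± 0.06), which blocks let-7 maturation. Of 11 genes of developmental timing, LIN28A, HMGA2 (-0.22 ± 0.06) and IGF2BP2 (-0.12 ± 0.04) fell and 0 rose, and no member had a fitted change above 0. LIN28A had 732, 759 and 712 CPM on day 5, against 902, 878 and 899 CPM on day 4. Of 18 gliogenic genes, SOX9 (0.42 ± 0.09), a factor of glial competence, and SLC1A2 (0.59 ± 0.10), a glutamate transporter, rose and 0 fell. SOX9 had 39.6, 40.6 and 43.2 CPM on day 5, against 29.6, 28.9 and 33.5 CPM on day 4. The oligodendrocyte list had 1 called gene of 6, MBP (0.84 ± 0.23), which encodes myelin basic protein. L1TD1 was not called without day 5 replicates 1 or 3 or without day 4 replicates 1 or 3, or in the fit of these days alone (adjusted p = 0.065 to 0.29). LIN28A, SOX9 and SLC1A2 were not called without replicate 1 of every day (adjusted p = 0.063 to 0.15). HMGA2 was not called whichever 1 of the 6 libraries was left out (adjusted p = 0.051 to 0.096). IGF2BP2 was not called without day 5 replicates 1, 2 or 3 or without day 4 replicates 1 or 3, or in the fit of these days alone (adjusted p = 0.073 to 0.18). MBP was not called without day 5 replicates 2 or 3 or without day 4 replicate 3, or in the fit of these days alone (adjusted p = 0.064 to 0.24).

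Of 52 clustered protocadherins, which give neurons surface identity, 4 were called higher and 0 lower, with a median log2 change of 0.22, and their shared exons make counts of single members uncertain. Of 62 clustered histone genes, 1 was called higher and 0 lower, with a median of -0.19, in libraries of polyadenylated RNA. Of 17 motile cilium genes, TPPP3 (0.51 ± 0.15) was called higher and 0 lower, and of 11 fatty acid synthesis genes ACSS2 (0.25 ± 0.07) was higher and 0 lower. Over all genes tested 3.95% were called higher and 2.78% lower, and such small counts lie near those shares. TPPP3 was not called without day 5 replicates 1, 2 or 3 or without day 4 replicates 1 or 2 (adjusted p = 0.061 to 0.13). ACSS2 was not called without day 5 replicates 2 or 3 or without day 4 replicates 2 or 3 (adjusted p = 0.065 to 0.15). Of 5 mesoderm genes, 0 were called by edgeR, 1 had an unadjusted p under 0.05 and 1 was called by DESeq2.

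Noncoding genes, picked after their values were seen, also moved. MIR9-3HG, a host gene of the neuronal microRNA miR-9, had 1.07, 0.916 and 1.07 CPM on day 5, against 0.127, 0.317 and 0.192 CPM on day 4 (log2 change 2.31 ± 0.30, adjusted p = 1.2e-06). LINC00461 had 3.02, 2.66 and 3.55 CPM on day 5, against 0.889, 1.22 and 1.03 CPM on day 4 (log2 change 1.56 ± 0.18, adjusted p = 3.1e-07). HOXA-AS3, which overlaps HOXA3 to HOXA7, changed by 1.10 ± 0.16, so its reads cannot be told from those of the HOXA genes. MIR222HG (-0.77 ± 0.19), BLACAT1 (-0.97 ± 0.15) and LINC00511 (-0.62 ± 0.14) fell. After day 8, CYP26A1 alternated from day to day, with odd days above the even days beside them. It had 22.0 CPM on day 9, 19.8 on day 11, 11.8 on day 13 and 15.9 on day 15. On days 8, 10, 12 and 14 it had 2.46, 6.16, 5.55 and 4.02 CPM. Whether this alternation followed medium exchange was not tested.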
